A study of Mus musculus with 19 samples.

Results

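Transcript levels of 8 genes of the PPAR gamma program of fat storage in liver were followed in hepatocytes of young and old mice: Pparg, Cd36, Mogat1, Vldlr, Fabp4, Lpl, Dgat1 and Dgat2. They were taken by symbol from the deposited counts, which hold 24537 genes, and each matched 1 row. All 8 had enough reads to be tested. Poly(A) RNA was sequenced from hepatocytes of 19 male C57BL/6J mice labelled WT, with 1 library per mouse, giving 10 mice of 5 months (young) and 9 of 24 months (old). The mice were culled on 2 days, 23 days apart, with 5 young and 5 old mice on the first and 5 young and 4 old mice on the second. All mice shared strain, sex and genotype, and no treatment is given in the labels. The hepatocytes came from sequential perfusion of the liver, and RNA came from a Trizol and chloroform extraction.

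PPAR gamma, encoded by Pparg, is a nuclear receptor that binds DNA as a partner of the retinoid X receptors and turns on genes of fatty acid uptake and triglyceride storage. It is best known as the master regulator of fat cells and is low in healthy hepatocytes, where PPAR alpha drives fatty acid oxidation instead. In fatty liver, hepatocyte PPAR gamma can rise and with it genes such as Cd36, Mogat1 and Cidec.

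The RefSeq promoter table used (GRCm38.p6, the build also called mm10) matched 4 of the 8 genes, Pparg, Cd36, Mogat1 and Vldlr, with 7 start sites. Upstream sequences are shown for these 4 because they are the ones matched, and their levels across mice are compared below. Each stretch lies just before a RefSeq start site and was cut where an annotated exon of the same gene begins. Capitals mark AGGTCA, the half-site that PPAR and retinoid X receptor pairs bind as a spaced repeat, on either strand. The stretches, 5′ to 3′ on the gene's strand, are from chr6:115421816-115422065 (plus strand, the third Pparg start), chr5:17835897-17836146 (minus strand), chr1:78510810-78510990 (plus strand) and chr19:27216234-27216483 (plus strand).
Pparg: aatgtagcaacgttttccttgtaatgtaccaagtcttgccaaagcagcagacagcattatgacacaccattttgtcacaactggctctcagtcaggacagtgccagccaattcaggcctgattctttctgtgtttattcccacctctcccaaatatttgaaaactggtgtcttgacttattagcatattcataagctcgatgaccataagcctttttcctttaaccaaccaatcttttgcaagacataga
Cd36: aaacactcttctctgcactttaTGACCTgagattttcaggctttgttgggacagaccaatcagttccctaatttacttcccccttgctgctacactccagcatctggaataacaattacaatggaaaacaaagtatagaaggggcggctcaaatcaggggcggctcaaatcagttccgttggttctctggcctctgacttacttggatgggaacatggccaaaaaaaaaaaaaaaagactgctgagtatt
Mogat1: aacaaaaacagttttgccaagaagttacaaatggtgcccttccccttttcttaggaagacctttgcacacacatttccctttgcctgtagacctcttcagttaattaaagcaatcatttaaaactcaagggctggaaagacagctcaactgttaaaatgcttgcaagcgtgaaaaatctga
Vldlr: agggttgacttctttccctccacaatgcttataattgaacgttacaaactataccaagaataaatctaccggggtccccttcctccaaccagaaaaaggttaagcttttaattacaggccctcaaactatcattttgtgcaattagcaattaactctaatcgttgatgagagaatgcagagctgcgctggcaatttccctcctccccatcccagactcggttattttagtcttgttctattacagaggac
Over the full 250 bases before each of the 7 starts, both strands were searched for the direct repeat AGGTCANAGGTCA and its looser form AGGNCANAGGNCA, which contains the first. Neither occurred in any of the 7, and over 32851 mouse promoters of that length the shares were 0.0335% and 0.338%. The single half-site AGGTCA occurred in 3 of the 7, against 14.0% of all promoters. These were Cd36 (minus strand, from position -228 before the start) and the first 2 Pparg starts (plus strand, from positions -28 and -9), whose half-sites lay within annotated exons and are not printed.

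Libraries held 17381307 to 19582934 counts over genes in young mice and 18156063 to 20287481 in old mice. The hepatocyte gene Alb had 61168 CPM or more in every library, and all 12 hepatocyte markers listed were detected and tested. Of these 12, 2 passed as higher in old mice and 3 as lower, with a median log2 fold change of -0.21, while their sum, led by Alb and Apoa1, had a median of 157950 CPM in young and 183258 CPM in old mice. Alb itself passed as higher (log2 fold change 0.47, edgeR adjusted p = 0.0262), and was at 0.23 without young mice 1184, 1186 and 1188, described next, which did not pass (edgeR adjusted p = 0.167). Markers of other liver cells were present as well. The 14 macrophage markers, with Mpeg1 and Cd5l the most abundant, summed to 146 to 700 CPM (normalized counts on a common scale of library size) in young and 83.8 to 3238 CPM in old mice, and 12 of 14 passed as higher in old. Endothelial markers, led by Ptprb and Eng (10 of 14 higher), summed to 206 to 377 CPM in young and 222 to 712 CPM in old mice. Stellate markers, led by Dcn and Ecm1 (12 of 13 tested higher), summed to 53.1 to 141 CPM in young and 146 to 520 CPM in old mice, so that every old mouse lay above every young mouse. Markers of T and NK cells, B cells and neutrophils summed to 33.0, 17.8 and 15.1 CPM in old mouse 1187 and to less in every other mouse. Of the adipocyte markers, Adipoq had at most 2 counts, Lep 1, and Plin1 and Retn 5 each in any library, while Lipe had 118 to 208 counts and Cfd 1 to 232. Outside Pck1, which hepatocytes express, the adipocyte list summed to 10.8 to 24.3 CPM in young and 13.2 to 23.8 CPM in old mice. In these bulk samples, fewer cells of a type and less RNA per cell cannot be told apart.

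Of the 19 libraries, 4 stood apart. Young mice 1184, 1186 and 1188, all of the first cull day, lay at -40.9 to -52.2 on the second principal component of all tested genes (19.8% of variance), where the other 16 lay between -12.1 and 26.6. Their hepatocyte markers summed to 122054 to 127360 CPM, against 156672 to 175783 CPM in the other young mice. Their macrophage markers summed to 394 to 700 CPM, against 146 to 317 CPM in the other young mice, and their cholangiocyte markers to 31.0, 170 and 35.3 CPM, against 5.44 to 13.3 CPM. Old mouse 1187 of the first cull day lay at 92.9 on the first component (41.4% of variance), with the next mouse at 31.8, and had the highest macrophage, endothelial and stellate sums. The age differences of the 8 genes are also plotted without them.

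On a per-length scale, the 8 genes spanned a wide range of levels. Mean CPM per kb of exon over the 19 libraries was 214 for Dgat2, 16.4 for Cd36, 9.23 for Dgat1, 5.24 for Pparg, 4.36 for Fabp4, 4.31 for Lpl, 1.04 for Mogat1 and 0.093 for Vldlr. The most abundant was thus a final enzyme of triglyceride synthesis, and the receptor itself sat in the middle. For Pparg, Fabp4 and Lpl, mean CPM per kb was 5.20, 3.00 and 1.91 in young mice and 5.29, 5.87 and 6.98 in old mice. The reversed order of the old means rested on old mouse 1187, at 6.47, 18.6 and 33.4 CPM per kb. Among the 9 old mice Pparg exceeded Fabp4 in 6, and Fabp4 exceeded Lpl in 6. Without old mouse 1187 the means over the other 18 libraries were 5.17, 3.57 and 2.70. Dgat2 exceeded Cd36, and Dgat1 exceeded Pparg, in 19 of 19 libraries. Fabp4 exceeded Lpl in 12 of 19, so those neighbours did not separate beyond the spread between mice. Cd36 exceeded Dgat1 in 15 of 19 and Pparg exceeded Fabp4 in 15 of 19, while Lpl exceeded Mogat1 in 16 of 19 and Mogat1 exceeded Vldlr in 18 of 19.

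**Figure D1:**
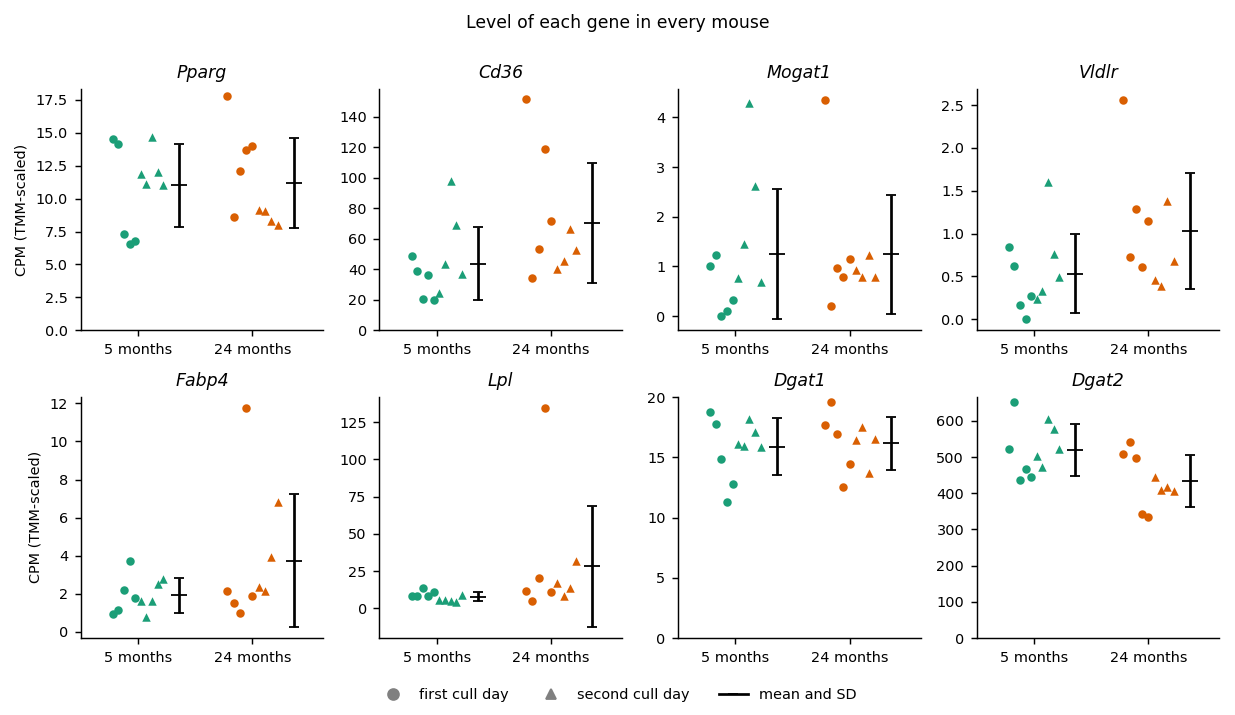
Level of each gene in every mouse, in CPM after TMM scaling (a correction for library composition), by age (horizontal axis) and cull day (circles first, triangles second), with mean and SD beside each group. Old mouse 1187 stands at 135 CPM for Lpl, and old mouse 1181 is the highest mouse for Pparg, Cd36, Mogat1 and Vldlr.

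With age, 1 of the 8 genes changed: Lpl was 3.45-fold higher in old mice, a log2 fold change of 1.79. It was 0.97 on the log2 scale without old mouse 1187, still past the threshold, and -0.07 with a score of other liver cells' markers as covariate, which did not pass (edgeR adjusted p = 0.0244 and 0.899). None of the 8 passed as lower by edgeR's quasi-likelihood test, with 1 lower at an unadjusted p under 0.05, and DESeq2 called 1 lower, Dgat2. Among all 12269 genes tested, 16.3% passed as higher in old mice and 14.5% as lower, so a count of 1 of 8 is no more than the background. The median log2 fold change of the 8 genes, old over young, was 0.47, and that of all tested genes was -0.0034.

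Pparg, on chromosome 6 (115360951 to 115490401), showed no difference with age over both cull days. In young mice it ranged from 6.58 to 14.7 CPM with a median of 11.5, and in old mice from 8.02 to 17.8 CPM with a median of 9.16. The ages overlapped almost fully: 1 old mouse, 1181, lay above all young mice, and the 3 lowest values (6.58, 6.80 and 7.33 CPM) were those of young mice 1186, 1188 and 1184. Its log2 fold change was -0.00 ± 0.187 (SE, 95% interval -0.39 to 0.39, edgeR adjusted p = 0.997). Without those 3 young mice it was -0.35 (edgeR adjusted p = 0.0548), so the estimate moved with them and did not pass the threshold of 0.05.

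Read by cull day, Pparg gave values of opposite sign. On the second day the 4 old mice lay at 8.02, 8.27, 9.04 and 9.16 CPM and the 5 young mice at 11.0, 11.1, 11.9, 12.0 and 14.6 CPM. Every old mouse was therefore below every young mouse on that day, a separation in that direction that 7.84% of tested genes showed. The second day gave a log2 difference of -0.49 ± 0.108 (SE, adjusted p = 0.00845 by edgeR). On the first day it was 0.42 ± 0.276 (SE, edgeR adjusted p = 0.343), with 5 old mice at 8.57 to 17.8 CPM and 5 young mice at 6.58 to 14.5 CPM. The difference between the days, tested as an age by cull day interaction, was -0.91 ± 0.321 on the log2 scale (p = 0.0105), and it did not pass after adjustment over all genes (edgeR adjusted p = 0.700). Of the 5 young mice of the first day, 3 were those that stood apart. Without them, with 2 young mice left on that day, the first-day log2 fold change was -0.13 (edgeR adjusted p = 0.794) and the interaction -0.38 (edgeR adjusted p = 0.99962), so the opposite sign between days rested on those 3 mice.

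Fatty acid and lipoprotein uptake comes first among the target genes. Cd36, a fatty acid translocase on the cell surface and a classical PPAR gamma target in liver (chromosome 5, 17781690 to 17849792), had 20.1 to 97.7 CPM in young mice with a median of 37.7, and 34.4 to 152 CPM in old mice with a median of 53.0. Old mice 1181 (152 CPM) and 1187 (119 CPM) lay above all young mice, 8 of 9 old mice lay above the young median, and young mice 1188, 1184 and 1235 were the lowest at 20.1, 20.8 and 24.5 CPM. Its rise of 0.71 ± 0.334 on the log2 scale (SE, 95% interval 0.01 to 1.41) did not pass after adjustment (edgeR adjusted p = 0.114). Without young mice 1184, 1186 and 1188 it was 0.31, and without old mouse 1187 it was 0.59.

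The days gave different values for Cd36. On the first, 4 of 5 old mice exceeded every young mouse, with a log2 fold change of 1.38 (edgeR adjusted p = 0.0719). On the second day no old mouse lay outside the young range and the log2 fold change was -0.07. The interaction was -1.47 ± 0.571 on the log2 scale (p = 0.0191, edgeR adjusted p = 0.708). Without young mice 1184, 1186 and 1188 the first-day value was 0.95 (edgeR adjusted p = 0.392) and the interaction -1.05.

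Vldlr, the very low density lipoprotein receptor (chromosome 19, 27217020 to 27254231), was barely expressed, with 0 to 1.60 CPM in young mice (median 0.41) and 0.39 to 2.56 CPM in old mice (median 0.73). Its highest values were those of old mouse 1181 and young mouse 1239, and its lowest those of young mice 1186 (0 counts, which at this depth allows up to 0.167 CPM) and 1184 (3 counts). The log2 fold change was 0.93 ± 0.489 (SE, 95% interval -0.09 to 1.95, edgeR adjusted p = 0.154), and 0.36 without young mice 1184, 1186 and 1188. With the other-cell score described below as covariate it was 1.56 (edgeR adjusted p = 0.0836). With the stellate markers alone it was 2.42 ± 0.756 (SE), which passed (edgeR adjusted p = 0.0465). Stellate marker sums were higher in every old mouse than in every young mouse. Their share and that of age therefore cannot be told apart in that fit. By day the log2 fold change of Vldlr was 1.72 on the first (edgeR adjusted p = 0.146, or 0.77 without those 3) and 0.10 on the second.

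Lpl encodes lipoprotein lipase, which frees fatty acids from circulating lipoproteins at the vessel wall (chromosome 8, 68880555 to 68906932). In young mice it ranged from 3.98 to 13.5 CPM with a median of 7.97, and in old mice from 4.99 to 135 CPM with a median of 13.6. Of the 9 old mice, 5 lay above all young mice, and 1187 stood far above the next old mouse, 1242, at 32.1 CPM. Old mouse 1183, at 4.99 CPM, lay within the low end of the young range. Its rise of 1.79 ± 0.467 on the log2 scale (SE, 95% interval 0.81 to 2.76) passed (edgeR adjusted p = 0.0087). Without old mouse 1187 it was 0.97 ± 0.299 and still passed (edgeR adjusted p = 0.0244). Both cull days gave an increase, of 1.89 on the first (edgeR adjusted p = 0.160) and 1.65 on the second (edgeR adjusted p = 0.0054, with 3 of 4 old mice above all young mice of that day).

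Lpl moved with the markers of other liver cells. An other-cell score was taken as the mean log2 CPM of 43 tested markers of macrophages, stellate and endothelial cells, B cells and lymphocytes of the T and NK lineages. With that score as a covariate, the log2 fold change of Lpl with age was -0.07 (edgeR adjusted p = 0.899). With the macrophage markers alone as covariate it was 0.41, with the endothelial markers -0.01 and with the stellate markers -0.62, none past the threshold. The score and each of these marker sets differed with age. Their share and that of age in the Lpl difference therefore cannot be told apart in these fits. The cell source of Lpl was not tested.

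Fabp4, the fatty acid binding protein of fat cells, macrophages and endothelium (chromosome 3, 10204343 to 10208576), showed a similar picture at lower levels. Young mice had 0.78 to 3.74 CPM with a median of 1.70, and old mice 0.97 to 11.8 CPM with a median of 2.15. The 3 old mice above all young mice were 1187 (11.8 CPM), 1242 (6.80 CPM) and 1240 (3.94 CPM). A log2 difference of 0.97 ± 0.419 (SE, 95% interval 0.10 to 1.85) did not pass (edgeR adjusted p = 0.0839). It was 0.42 without old mouse 1187 (edgeR adjusted p = 0.366) and -0.34 with the other-cell score as covariate (edgeR adjusted p = 0.539). Of the 9 adipocyte markers, with values given above, only 4 had enough reads to be tested, and 0 passed as higher in old mice. The 3 tested markers other than Pck1 had a median log2 fold change of 0.47. The part of fat cells in the Fabp4 values was not tested.

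Triglyceride assembly is the last group. Mogat1 adds a fatty acid to monoacylglycerol and is a PPAR gamma target in fatty liver (chromosome 1, 78511060 to 78538173). In young mice it ranged from 0 to 4.30 CPM with a median of 0.88, and in old mice from 0.21 to 4.36 CPM with a median of 0.93. Old mouse 1181 and young mouse 1239 were the highest of their ages at 4.36 and 4.30 CPM, and young mice 1184 and 1186 had 0 and 2 counts, where 3 counts correspond to about 0.164 and 0.167 CPM. The log2 fold change was 0.23 ± 0.630 (SE, 95% interval -1.09 to 1.54, edgeR adjusted p = 0.808), an interval too wide to place the change in either direction. It was 0.92 with the other-cell score as covariate (edgeR adjusted p = 0.485). Its sign turned between days, from 1.47 on the first to -1.06 on the second (interaction -2.53 ± 1.10, p = 0.0337, edgeR adjusted p = 0.733). Without young mice 1184, 1186 and 1188 it was -0.52 over both days, 0.39 on the first day, and the interaction was -1.48 (edgeR adjusted p = 0.99962).

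Dgat1 and Dgat2 encode the unrelated enzymes that add the final fatty acid to make triglyceride, and Dgat2 works preferentially on fatty acids newly made in the liver. Dgat1 (chromosome 15, 76502015 to 76511818) hardly differed between the ages, at 11.3 to 18.8 CPM in young mice (median 16.0) and 12.6 to 19.6 CPM in old mice (median 16.5). Its log2 fold change was 0.03 ± 0.097 (SE, edgeR adjusted p = 0.836), and the 95% interval of -0.17 to 0.23 was the narrowest of the 8. It was 0.25 with the other-cell score as covariate (edgeR adjusted p = 0.0867). With the stellate markers alone it was 0.41, which passed (edgeR adjusted p = 0.0332). As for Vldlr, the share of those markers and that of age cannot be told apart in that fit. The lowest young values again belonged to 1186 (11.3 CPM), 1188 (12.8 CPM) and 1184 (14.9 CPM), and the lowest old value to 1187 (12.6 CPM).

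Dgat2 (chromosome 7, 99153663 to 99182713) had 435 to 651 CPM in young mice with a median of 512, and 336 to 540 CPM in old mice with a median of 416. Of the 9 old mice, 5 lay below all young mice and 1 lay above the young median. The log2 fold change of -0.26 ± 0.102 (SE, 95% interval -0.48 to -0.05) missed the threshold in edgeR (adjusted p = 0.0580) and passed in DESeq2 at -0.27 (adjusted p = 0.0308). On the second cull day each of the 4 old mice was lower than any young one, at 407 to 444 CPM against 474 to 606 CPM. Of all tested genes, 7.84% separated in that direction on that day. The log2 fold change of Dgat2 on that day was -0.35 (edgeR adjusted p = 0.0140). On the first day it was -0.18 (edgeR adjusted p = 0.548). With the other-cell score as covariate it was -0.05, and without young mice 1184, 1186 and 1188 it was -0.37 (edgeR adjusted p = 0.0207).

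**Figure D2:**
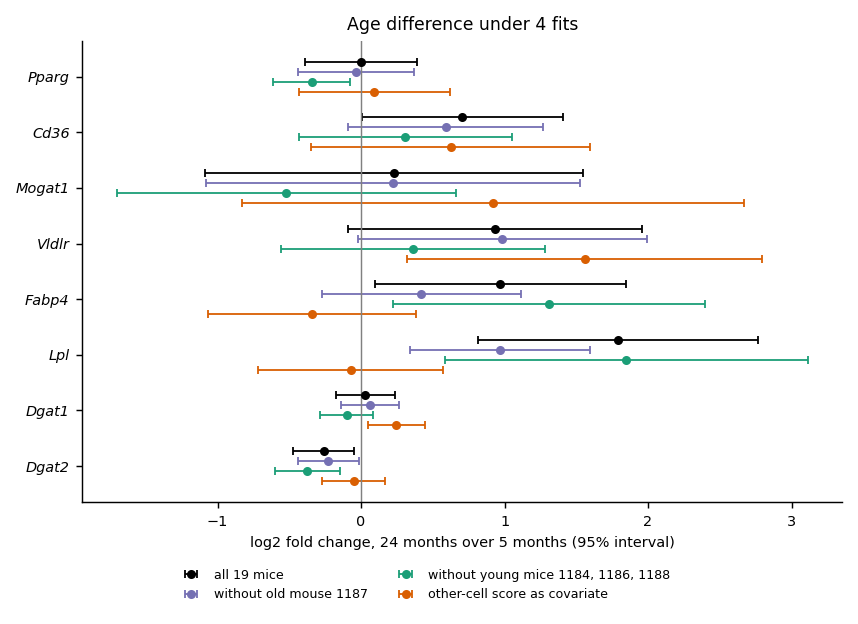
Log2 fold change of each gene, old over young, with its 95% interval (horizontal axis), in the fit of all 19 mice, without old mouse 1187, without young mice 1184, 1186 and 1188, and with the other-cell score as covariate. Lpl goes from 1.79 with all mice to 0.97 without 1187 and to -0.07 with the score, and Dgat1 lies between -0.10 and 0.25.

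Counted by day, the second cull day had 1 of 8 genes higher (Lpl) and 2 lower (Pparg and Dgat2), where 12.2% of 12362 tested genes passed as higher and 7.15% as lower. On the first day none of the 8 passed in edgeR, with 3 at an unadjusted p under 0.05, and 3.67% of 12260 tested genes passed in either direction. With the other-cell score as covariate none of the 8 passed in edgeR, with 2 at an unadjusted p under 0.05, against 13.5% of all genes passing. For the interaction, none of the 8 passed in edgeR or in DESeq2 and 0.0% of all genes passed in edgeR, while 3 of the 8 (Pparg, Cd36 and Mogat1) had an unadjusted p under 0.05 in both tools, which 6.51% of all genes had in edgeR. In all 3 the interaction was negative, with the old mice relatively lower on the second day. Without young mice 1184, 1186 and 1188 none of the 8 interactions passed in edgeR and none had an unadjusted p under 0.05. DESeq2 was not run for the single days or with the covariate.

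Mice of the same age and cull day differed in Pparg, and Mogat1 and Cd36 varied with it, as did Vldlr by one of the measures. Levels were taken as residual log2 CPM from the mean of each age on each cull day, over the 19 mice, with permutation within those groups. Pparg and Mogat1 gave Pearson's r = 0.83 (permutation p = 0.0018, adjusted p = 0.0125) and Spearman's rho = 0.754 (adjusted p = 0.0241). Pparg and Cd36 gave r = 0.66 (permutation p = 0.0042, adjusted p = 0.0176) and rho = 0.670 (adjusted p = 0.0274). Pparg and Vldlr gave r = 0.69 (permutation p = 0.0067, adjusted p = 0.0192) and rho = 0.554, which did not pass (adjusted p = 0.0801). P-values were adjusted over the 21 relations of Pparg with the other 7 genes among all, young and old mice.

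Leaving out the 2 of the 19 mice farthest from the median of Pparg gave r = 0.78 for Mogat1, 0.66 for Cd36 and 0.57 for Vldlr. Without young mice 1184, 1186 and 1188, which form a group of their own, r over the other 16 was 0.85 for Mogat1 (permutation, adjusted p = 0.0313), 0.75 for Cd36 (permutation, adjusted p = 0.0313) and 0.49 for Vldlr (permutation, adjusted p = 0.194). By cull day, r on the first and second was 0.88 and 0.67 for Mogat1, 0.77 and 0.49 for Cd36, and 0.81 and 0.43 for Vldlr.

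Within an age fewer relations passed. For these, residuals from the cull day means of 1 age were permuted within cull days in all orderings, over 21 relations with Pparg. Among the 10 young mice, Dgat1 (r = 0.93, rho = 0.927, exact permutation adjusted p = 0.0015 for r) and Vldlr (r = 0.80, rho = 0.733, exact permutation adjusted p = 0.0384 for r and 0.124 for rho) passed by r. For Mogat1, Cd36 and Dgat2 in young mice r was 0.79, 0.58 and 0.80, none past the threshold (exact permutation adjusted p = 0.124, 0.157 and 0.0638). Among the 9 old mice r was 0.81 for Cd36 and 0.91 for Mogat1 (exact permutation adjusted p = 0.157 for each), and 0.09 and -0.11 without the 2 mice farthest from the median of Pparg, so in old mice both rested on those mice. Without removing cull day, Pparg and Cd36 in old mice gave r = 0.81 with an exact permutation adjusted p of 0.0192, but both genes averaged higher in old mice of the first day than of the second (13.2 against 8.62 CPM for Pparg, 85.8 against 51.2 CPM for Cd36).

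The relation of Dgat1 to Pparg in young mice gave r = 0.84 without the 2 farthest mice. In the 7 young mice other than 1184, 1186 and 1188 it gave r = 0.91 and rho = 0.929 (exact permutation adjusted p = 0.0384 for r), and 0.71 without the 2 farthest. For Mogat1, Vldlr, Cd36 and Dgat2 in those 7 mice, r was 0.77, 0.81, 0.72 and 0.58, none past the threshold after adjustment, and 0.07, 0.51, 0.19 and 0.33 without the 2 farthest. In the 9 old mice Dgat1 had r = -0.31 with Pparg (exact permutation p = 0.579). The difference between ages in this relation was not tested.

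**Figure D3:**
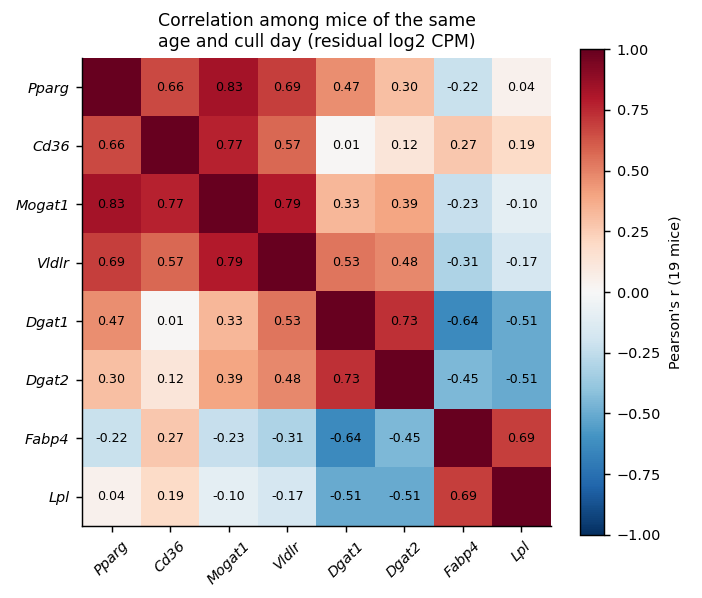
Pearson's r between residual log2 CPM of each pair of genes over the 19 mice, after removing the mean of each age and cull day (colour from -1 to 1). Pparg, Cd36, Mogat1 and Vldlr form a block with r between 0.57 and 0.83, and Fabp4 and Lpl have r between -0.64 and -0.45 with Dgat1 and Dgat2.

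The other pairs fell into groups. Of 21 relations among genes other than Pparg, Mogat1 with Vldlr (r = 0.79, rho = 0.818), Cd36 with Mogat1 (r = 0.77, rho = 0.663) and Dgat1 with Dgat2 (r = 0.73, rho = 0.735) were positive with adjusted permutation p of 0.0123, 0.0123 and 0.0297 for r. For rho the adjusted permutation p was 0.0063, 0.0687 and 0.0421, so Cd36 with Mogat1 did not pass by that measure. Cd36 with Vldlr did not pass (r = 0.57, rho = 0.537, adjusted permutation p = 0.0727 for r and 0.125 for rho). Leaving out the 2 farthest mice gave 0.81, 0.67 and 0.72. By cull day, r was 0.80 and 0.80 for Mogat1 with Vldlr, 0.73 and 0.92 for Cd36 with Mogat1, and 0.77 and 0.45 for the pair of Dgat genes. Fabp4 and Dgat1 ran opposite to each other (r = -0.64, rho = -0.611, adjusted permutation p = 0.0489 for r and 0.0687 for rho, which did not pass), and r was -0.38 without the 2 farthest mice, so this relation rested on them. Fabp4 with Lpl (r = 0.69, rho = 0.414) did not pass (adjusted permutation p = 0.117).

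Against the other-cell score, Lpl and Fabp4 rose and the Dgat genes fell. Over the 19 residuals, r was 0.84 for Lpl (rho = 0.611), 0.72 for Fabp4 (rho = 0.649), -0.70 for Dgat1 (rho = -0.675) and -0.65 for Dgat2 (rho = -0.632), with adjusted permutation p of 0.0121, 0.0367, 0.0287 and 0.0456 for r over 24 relations. Without the 2 mice farthest from the median score, r was 0.48, 0.54, -0.53 and -0.44, so the size of these relations rested in part on them. By cull day it was 0.88 and 0.65 for Lpl, 0.84 and 0.26 for Fabp4, -0.74 and -0.38 for Dgat1, and -0.66 and -0.59 for Dgat2. Among the 9 old mice, with cull day means removed and permutation within days, Fabp4 gave r = 0.82 and rho = 0.900 and Lpl r = 0.94 and rho = 0.767, none past the threshold after adjustment (exact permutation adjusted p = 0.146 and 0.0708 for r).

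Pparg, Cd36, Mogat1 and Vldlr gave r of -0.08, 0.13, -0.24 and -0.40 with the score over the 19 residuals, with rho of -0.317, -0.079, -0.477 and -0.489, none past the threshold. Without the 2 mice farthest from the median score r was -0.64, -0.50, -0.76 and -0.63, so these values rested on those mice. Among the 10 young mice, with cull day means removed, r was -0.71, -0.71, -0.92 and -0.81, and Mogat1 passed by r (exact permutation adjusted p = 0.0467, or 0.0950 for rho) while the other 3 did not. In the 7 young mice without 1184, 1186 and 1188 the r values were -0.39, -0.90, -0.77 and -0.77, and none passed after adjustment (exact permutation, 24 relations). The 9 old mice gave positive r for the first 3 genes, of 0.52, 0.72 and 0.33, and -0.07 for Vldlr. None of the 4 passed in old mice, with Cd36 at rho = 0.833 (exact permutation adjusted p = 0.223 for r and 0.111 for rho), and the difference between ages was not tested. By cull day over both ages, r on the first and second was -0.05 and -0.49 for Pparg, 0.37 and -0.69 for Cd36, -0.15 and -0.72 for Mogat1, and -0.42 and -0.45 for Vldlr. The relations among Pparg, Mogat1, Cd36 and Vldlr were not fitted with the score as a covariate, and the part of other cells in their shared variation was not tested.

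**Figure D4:**
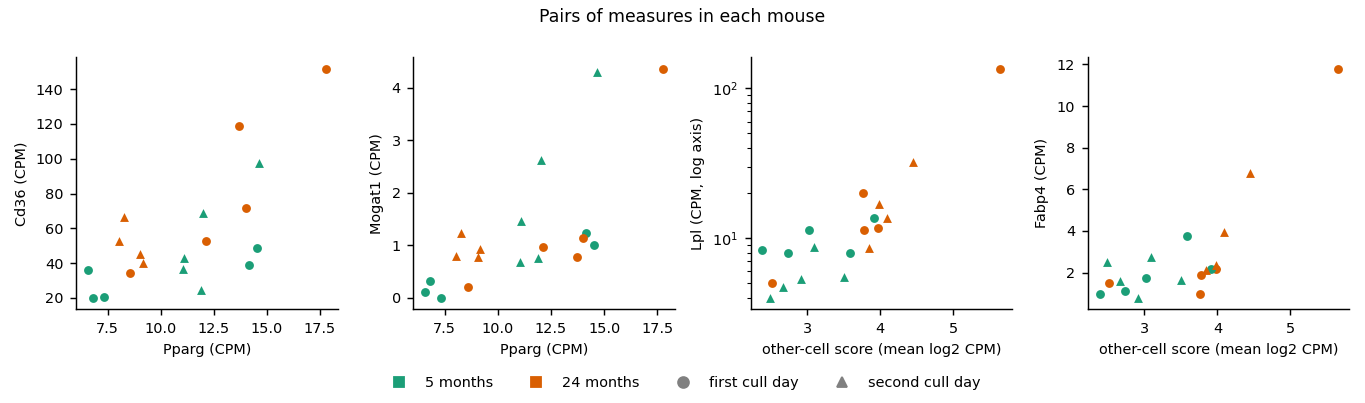
Each point is a mouse, coloured by age and shaped by cull day. The panels plot Cd36 and Mogat1 against Pparg (CPM), and Lpl (log axis) and Fabp4 against the other-cell score (mean log2 CPM of 43 markers), where old mouse 1187 is the point at the far upper right of the last 2 panels.

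The genes whose log2 CPM most resembled each member over the 19 libraries, among 11030 searched, also differed by group. For Pparg they were Abcc3 (r = 0.88) and Olig1 (0.82). Those of Vldlr included the lactate and pyruvate transporter Slc16a7 (0.87) and the phospholipid transfer protein gene Pltp (0.86). Cd36 lay nearest to Cyp2a22 (0.90), Lgals1 (0.88) and the quinone reductase Nqo1 (0.87). Mogat1 lay nearest to the pentose phosphate enzyme Tkt (0.87), Rdh16 (0.87) and Dram2 (0.86). The nearest to Lpl were Lrmp (0.95), the acid ceramidase Asah1 (0.93) and Frmd4a (0.93), and to Fabp4 Pilrb2 (0.90), the myeloid integrin Itgam (0.87) and Dmpk (0.86). Dgat1 lay nearest to the carboxylesterases Ces1d (0.88) and Ces1e (0.87) and to Ppp2r5a (0.86), and Dgat2 to the alanine aminotransferase Gpt (0.90), Abcb6 (0.89) and Cyp2d10 (0.89). These correlations are given as a description and share age, cull day and the libraries that stood apart.

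Other genes of the same pathway, taken from 6 lists without the 8 genes, changed in both directions. Of 119 with a row, 106 were tested, and 14 passed as higher in old mice, 18 as lower and 74 did not pass, with a median log2 fold change of -0.09 against -0.0034 for all genes. Over all 19 mice these counts are near the shares of all tested genes that passed, 16.3% as higher and 14.5% as lower. Without young mice 1184, 1186 and 1188 the count of lower genes was 32 of the 119 with a row, above the 12.5% of all tested genes. It was 33 of the 119 on the second cull day alone, also above the 7.15% of all genes. With the other-cell score as covariate it was 6 of the 106 tested, near the 6.59% of all genes. These genes were not tested as a set. Of 19 tested partners and cofactors of the receptors, 5 fell and 2 rose, with a median of -0.25, and 3 to 6 passed as lower when 1 mouse was left out. Rxra, the main retinoid X receptor of liver, fell by 0.27 (log2, SE 0.083, edgeR adjusted p = 0.0206), and Ppara fell by 0.46 (log2, SE 0.161, edgeR adjusted p = 0.0348), from 195 ± 55.0 CPM in young mice (SD, n = 10) to 145 ± 42.8 CPM in old mice (SD, n = 9). The coactivators Ncoa1 (-0.42), Ncoa2 (-0.36) and Med1 (-0.39) fell, and Ppard (0.54) and Rxrg (0.47) rose. The calls of Ppara, Med1 and Rxrg held in 9, 16 and 17 of 19 fits that left out 1 mouse.

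Of 19 other PPAR gamma targets tested, 6 rose and 2 fell, with a median of 0.27. Cidea and Cidec, which enlarge lipid droplets, rose most. Cidea went from 0 to 1.54 CPM in young mice to 4.02 to 38.8 CPM in old mice, so every old mouse lay above every young mouse. The share of all tested genes that separated in this way was not counted. The fitted log2 difference of Cidea was 4.72 ± 0.659 (SE, adjusted p = 0.000106 by edgeR). Cidec stood at 4.65 ± 4.12 CPM (SD) in the 10 young mice and 15.6 ± 10.6 CPM (SD) in the 9 old ones. Its log2 fold change was 1.87 (edgeR adjusted p = 0.0118), with 3.24 for the first cull day alone and 0.41 for the second. With the other-cell score as covariate, Cidea was at 5.25 and Cidec at 2.80, both past the threshold (edgeR adjusted p = 0.00042 and 0.0051). Hilpda (0.65), a hypoxia-induced droplet protein, Fabp5 (0.98), Pdk4 (1.17) and Cyp4b1 (0.89) also rose, and the gluconeogenic Pck1 (-0.50) and Gpd1 (-0.54) fell. Plin1, Adipoq, Retn and Aqp7 had too few reads to be tested.

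The lists nearest to the 8 genes by function held changes in both directions. Among 16 other genes of fatty acid uptake and binding, Fabp5 and Fabp7 (1.66) rose and Slc27a2 (-0.27), Got2 (-0.21) and Acbd5 (-0.36) fell. Fabp7 was at 0.83 without old mouse 1187 (edgeR adjusted p = 0.0485) and at -0.18 with the other-cell score as covariate (edgeR adjusted p = 0.629). Among 18 lipoprotein lipases, regulators and receptors, Gpihbp1, the endothelial protein that anchors lipoprotein lipase, rose by 1.10 (SE 0.227, edgeR adjusted p = 0.0022), and Reln, a ligand of the very low density lipoprotein receptor that stellate cells make, rose by 1.44. Gpihbp1 was at 0.51 with the other-cell score as covariate (edgeR adjusted p = 0.101), and Reln is itself one of the stellate markers. Of 14 genes of triglyceride synthesis, Gpat2 (1.66), Plpp1 (0.48) and Plpp2 (0.26) rose and Lpin1 (-1.21), Lpin2 (-0.53), Gpat4 (-0.32) and Agpat3 (-0.20) fell. Mogat2, the other liver monoacylglycerol acyltransferase, was too low to test, at a mean of 0.21 CPM in young and 0.099 CPM in old mice. Of 26 PPAR alpha targets, Pdk4 rose, and Cpt2 (-0.47) and Creb3l3 (-0.26) were among those that fell, with a median of -0.21. The calls of Slc27a2, Got2, Agpat3, Plpp1 and Fabp5 held in 6, 12, 11, 13 and 16 of 19 fits that left out 1 mouse.

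**Figure D5:**
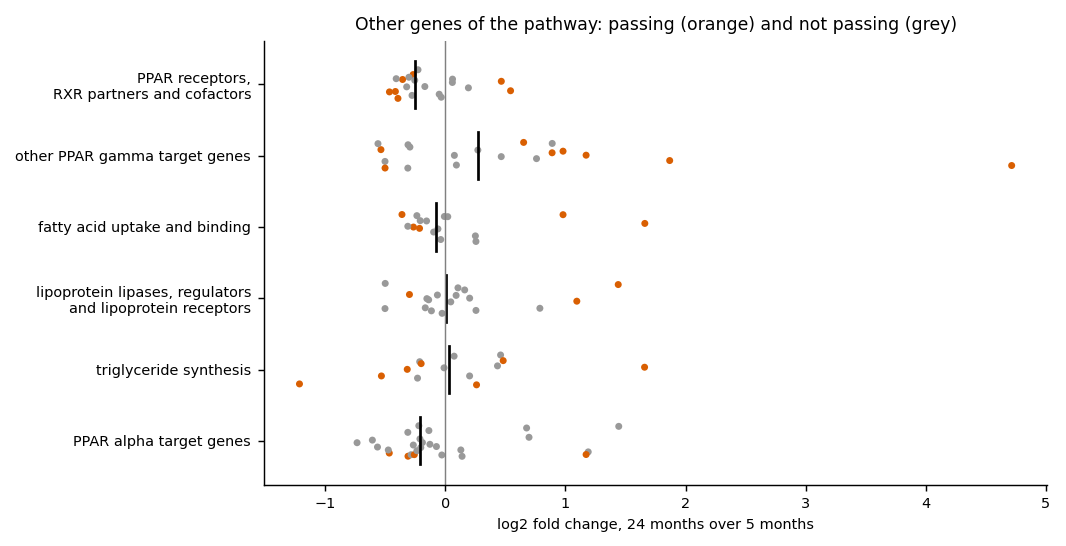
Log2 fold change, old over young, of the tested genes of each pathway list without the 8 genes (horizontal axis), with genes that passed in orange, the others in grey and a black bar at each list's median. Cidea stands at 4.72 and Lpin1 at -1.21, and the medians lie between -0.25 and 0.27.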

How the data were processed

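The authors deposited 1 table of estimated counts per gene, which per the file headers HOMER wrote for mm10 from exons of RefSeq transcripts, condensed to genes and not normalized. STAR, HOMER and GRCm38 are named without versions in the submitters' processing notes, and the handling of reads with several matches and of strand is not given in the sources used here. Coordinates are those of the table, on mm10, and no other gene of the table overlaps any of the 8. The counts were multiples of 0.5, 29.2% of values were not whole, and they were rounded to whole counts (ties to even) before any test. All 19 sample columns matched a mouse by its number. Libraries of an age differed by a chi-square of at least 15.4 times its degrees of freedom, so no library was counted as deposited more than once. Mice are separate animals only as far as the labels give 1 library number each.

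Age was tested over all genes with edgeR 4.0.16 (R 4.3.3) by its quasi-likelihood test, with TMM scaling, filterByExpr by age (minimum count 10), a cull day term and Benjamini-Hochberg adjustment (threshold 0.05) over 12269 genes. A fold change here is old over young on the log2 scale, and CPM is scaled by TMM. Log2 CPM used a prior count of 2, and 3 counts in a library were taken as its floor, which covers counting error only. The 95% intervals of fold changes come from the edgeR fit and include the spread between mice. Correlations over the 19 mice used 100000 permutations, and those within an age every ordering within cull days. Principal components were those of log2 CPM. Alternatives were DESeq2 1.42.0, limma-voom with sample weights (limma 3.58.1), other scalings and filters, either cull day alone, age without a day term, an other-cell covariate, unrounded counts, and leaving out each mouse or young mice 1184, 1186 and 1188. Covariates of single cell types, relations without the 3 young mice or with the other-cell score, relations within an age with cull day means removed, and day-wise and interaction fits without the 3 young mice were added after seeing the data. The fits were tested on simulated data.

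The 8 genes, the lists and the tests were chosen with earlier results of these data known. Besides the 8 genes, the text names in each pathway list the 3 genes with the smallest p, plus Ppara, Rxra, Gpihbp1 and Mogat2, the 3 nearest patterns to each gene among named genes averaging 1 CPM or more, and the 2 most abundant markers of each list. Other genes that passed in a short list, and Adipoq, Lep, Plin1 and Retn, were named after their values were seen. Some genes that the rule would name are not reported here. Figures were drawn with matplotlib 3.10.9 in Python 3.11.15.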

Additional observations from a re-analysis of the deposited data

Results flagged for a closer look

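In 4 of 16 groups (8 genes in each age), 1 mouse stood apart from the others of its age by more than the usual limit for a single extreme value. That limit flags about 1 in 20 groups only where values are independent and normally distributed. The CPM values were skewed for genes such as Lpl in old mice, and some genes varied together. The count of 4 of 16 is therefore not compared with that rate. Mogat1 was 4.36 CPM in old mouse 1181, with the next old mouse at 1.23 CPM. Vldlr was 2.56 CPM in the same mouse, with the next at 1.38 CPM, and this mouse also had the highest Pparg and Cd36 of all 19. Vldlr was 1.60 CPM in young mouse 1239, with the next young mouse at 0.84 CPM. Lpl was 135 CPM in old mouse 1187, with the next old mouse at 32.1 CPM, and the macrophage markers of that mouse summed to 3238 CPM against 805 CPM in the next old mouse. The cause of these values was not tested.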

How the results depend on the processing

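No paired analysis was possible because library numbers are not shared between the ages. Lpl kept its rise in all 19 fits that left out 1 mouse (log2 0.97 to 1.93). In those fits Pparg ranged from -0.093 to 0.056, Cd36 from 0.51 to 0.88, Mogat1 from -0.33 to 0.53, Vldlr from 0.67 to 1.25, Fabp4 from 0.42 to 1.16, Dgat1 from -0.018 to 0.070 and Dgat2 from -0.31 to -0.21. Of the 19, 1 called Cd36 and Vldlr (without young 1239), 2 Fabp4 (without old 1185 or young 1186) and 4 Dgat2 (without old 1181, 1183 or 1185 or young 1184), so 1 to 3 members passed as higher and 0 to 1 as lower. On the first cull day alone 231 genes passed as higher and 219 as lower, 0 members and 4 and 1 other pathway genes among them, with Pparg at 0.42 and Lpl at 1.89. On the second alone 884 passed as lower, 2 members and 33 other pathway genes among them, with Pparg at -0.49, Cd36 at -0.073, Mogat1 at -1.06, Dgat1 at -0.050 and Dgat2 at -0.35. The other-cell covariate left 846 genes higher and 808 lower, 0 members higher and 6 other pathway genes lower, with Pparg at 0.093, Fabp4 at -0.34, Lpl at -0.072 and Fabp7 at -0.18. The macrophage covariate gave 0 members higher, Pparg 0.073 and Lpl 0.41, and the endothelial one 0 higher, Fabp4 -0.31 and Lpl -0.0051. The stellate covariate, whose marker sums did not overlap between the ages, gave 2 members higher, Vldlr 2.42 and Dgat1 0.41. Pparg was then 0.25, Fabp4 -0.80, Lpl -0.62 and Dgat2 0.11. Without young mice 1184, 1186 and 1188, 1 member, Dgat2 (-0.37), and 32 other pathway genes were lower, with Mogat1 at -0.52 and Dgat1 at -0.10, and r with Pparg was 0.49 for Vldlr, 0.14 for Fabp4, -0.17 for Dgat1 and -0.14 for Dgat2. The first cull day alone without those 3 gave 0 members higher, Lpl 2.16 and Dgat1 -0.19, and the interaction without them was -0.79 for Fabp4, 0.12 for Dgat1 and 0.040 for Dgat2. DESeq2 called 1 member lower, Dgat2 (-0.27). Scaling by library totals alone gave 1169 genes lower and moved the share of calls that were higher from 53.0% to 64.2%, the median of all genes from -0.0034 to 0.042, Pparg to 0.042 and the Fabp4 interaction to -0.018. Pparg was 0.012 with a filter of 1 CPM, 0.024 without the cull day term and 0.00078 on unrounded counts, Mogat1 was -0.0074 without the cull day term, and Dgat1 was -0.0012 without a filter. Without mouse 1187 r of Pparg with Lpl was -0.029. The cause of these changes was not tested. Depth limits Mogat1 and Vldlr most, with counts of 0 to 85 and 0 to 50 per library.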
